A study of Rattus norvegicus with 9 samples.

Results

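Baseline gene expression was described in the dorsal root ganglion (DRG) of sham-operated rats, from 3 of the 9 RNA-Seq libraries of the series. The 3 libraries were chosen by their sham label, and no expression value was used to choose them. The study examined the G protein-coupled oestrogen receptor in neuropathic pain after spared nerve injury (SNI), with 3 sham, 3 SNI and 3 SNI + G15 libraries, where G15 is an antagonist of that receptor. Only the sham libraries are described here, and no value of the other groups was used.

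The sham samples were DRG tissue of adult male Sprague Dawley rats, a wild-type outbred strain, with no genetic alteration in the labels. The sample titles name them as controls for G15, and no agent is listed for them. Intrathecal catheters were placed on day 5 after SNI and drugs were given for 24 h, in 2% DMSO per the labels but in a lower share per the study's methods. The place of the catheter was checked with 2% lidocaine. These texts are the same for every sample, and the labels do not say whether sham rats received a catheter, lidocaine or vehicle. The labels name neither the spinal level of the ganglia nor the number of animals behind a library. The study's methods name lumbar ganglia of the operated side for tissue collection. The number of rats per group for RNA-Seq differs between its methods and its supplementary table. The extraction text of the labels names macrophages, whereas the tissue field names DRG. The markers below therefore also served as a check of the tissue.

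The DRG holds the cell bodies of the primary sensory neurons, which send one axonal branch to the skin, muscle and viscera and another to the spinal cord. Each cell body is wrapped by satellite glial cells, and the axons are ensheathed by myelinating or non-myelinating Schwann cells. Fibroblasts, a perineurial and meningeal covering, blood vessels and resident macrophages make up most of the rest. Nociceptors, which signal tissue damage, are usually divided into peptidergic cells that release CGRP or substance P and nonpeptidergic cells. Large neurons with myelinated axons serve touch and body position.

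Expression was measured as FPKM, the fragments assigned to a gene per kilobase of transcript and per 1000000 fragments, so levels of different genes can be compared per length. The libraries held 18500205, 18648695 and 18623013 estimated reads. They were close to each other: Spearman's rho over the 20194 genes was 0.990, 0.989 and 0.990 for the 3 pairs, given as a description across genes within one tissue. Their counts were not copies of each other. Over 7754 genes with whole counts of at least 100, the squared difference between a pair was divided by its variance under counting noise. The median was 1.07 to 1.28, against 0.455 for counting noise alone, which does not tell separate animals from separate preparations. The libraries also differed with transcript length. In genes with an effective length under 0.5 kb, sham 2 was above sham 1 by a median of 0.23 on the log2 scale, and in genes over 6 kb it was 0.12 below. The values of short genes in sham 2 therefore tend to lie at the top of their range, which is visible in the ribosomal and respiratory chain genes described further on.

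An FPKM of at least 1 in every sham library was reached by 13005 of the 20194 genes, or 64.4%. The median over all genes was 3.89 ± 0.036 FPKM (SD, n = 3). Only 36 genes reached a mean of 1000 FPKM, and these held 14.7% of the summed FPKM. A further 837 genes lay between 100 and 1000 FPKM and held 42.1%. At the other end, 1014 genes were listed at 0 in every library. The 10 most abundant genes held 6.57 ± 0.11% of the summed FPKM, the first 100 held 24.0 ± 0.23%, and the first 1000 held 59.3 ± 0.63% (SD, n = 3).

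**Figure D1:**
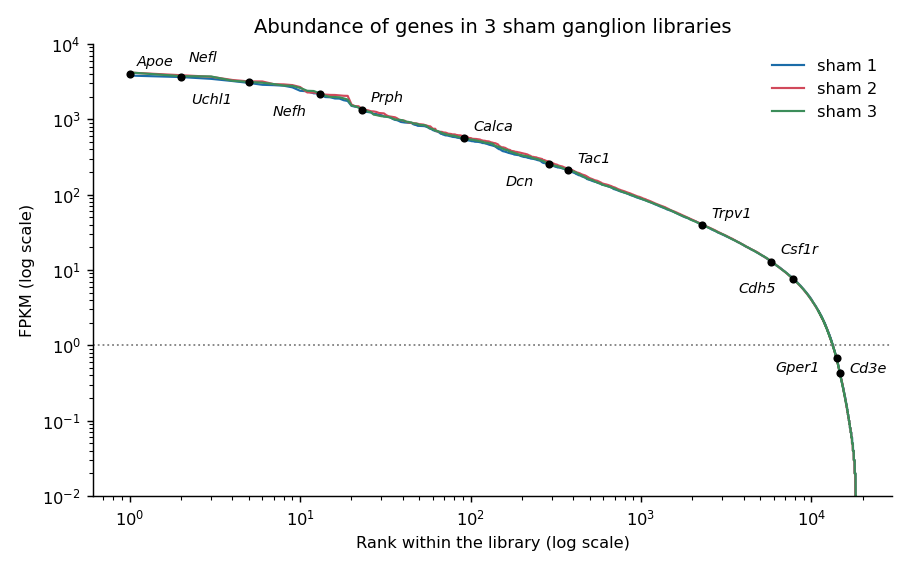
FPKM of each gene (y axis, log scale) against its rank within the library (x axis, log scale) for sham 1, 2 and 3, with named genes marked at their mean and rank and a dotted line at 1 FPKM. The 3 curves lie on each other, from Apoe at 4056 FPKM down through Calca at 562 and Trpv1 at 39.9 to Gper1 at 0.68.

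The most abundant transcript was Apoe, the lipid carrier apolipoprotein E, which satellite glia and macrophages make in the ganglion. Apoe stood at 3808, 4172 and 4188 FPKM and ranked first in all 3 libraries. Nefl, the light neurofilament subunit of axons, followed with 3640, 3673 and 3742 FPKM. Fth1, the ferritin heavy chain that stores iron, had 3447, 3844 and 3706 FPKM, so its range enclosed that of Nefl and the order of these genes was not resolved. Among the 30 most abundant genes with a gene symbol, 21 of the 29 neighbouring pairs had overlapping ranges, whereas the list itself was steady: the same 10 genes led every library, and 91 genes were in the first 100 of each.

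Many of the leading genes belonged to neurons and their axons. Uchl1, the neuronal ubiquitin hydrolase used as a general marker of neurons, came next after Tuba1a with 3044, 3185 and 3138 FPKM. Sncg, γ-synuclein of peripheral neurons, reached 2659, 2909 and 2812 FPKM. Of 20 genes for neurofilaments and the axonal cytoskeleton, 9 were among the first 100 and all 20 were above 1 FPKM, with a median of 359 ± 14 FPKM. This group contains the medium and heavy neurofilament subunits Nefm (2332 FPKM) and Nefh (2177 FPKM), the tubulins Tuba1a (3268 FPKM) and Tubb3 (2295 FPKM), and Prph (1342 FPKM), the intermediate filament of peripheral neurons. Nefl exceeded Nefh by a ratio of 1.69 ± 0.048, and Nefm exceeded Nefh by only 1.07 ± 0.0037. Long axonal genes lead even more when length is disregarded: by counts scaled to the library total, Nefh, Nefl, Nefm and Map1b, a microtubule-associated protein, ranked 1 to 4, although Map1b was only 94th by FPKM.

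Genes from other cells and general cell functions filled most of the remaining places. Thy1 and Stmn2, also named in this paragraph, are markers of sensory neuron identity. The actin-binding thymosins Tmsb4x (2986 FPKM) and Tmsb10 (2050 FPKM), the glycolytic enzyme Gapdh (2561 FPKM), the cysteine protease inhibitor Cst3 (1993 FPKM), polyubiquitin Ubb (1991 FPKM), the α-tubulin Tuba1b (2039 FPKM), the cyclophilin Ppia (1913 FPKM) and the galectin Lgals1 (1879 FPKM) all belonged to the first 20. The remaining named genes below them, down to 1129 FPKM, were the surface glycoprotein Thy1, Gnas (the stimulatory G protein subunit), the lysosomal protease Ctsb, the glycolytic enzyme Aldoa, the elongation factor Eef1a1, the peripheral myelin protein Pmp22, the adaptor Ywhah, the microtubule regulator Stmn2, the chaperone Hspa8, cytoplasmic actin Actg1 and the tubulin-binding protein Tppp3. Of the 100 most abundant genes, 34 had estimated counts that were not whole in at least 1 library, a share close to the 33.1% of all genes (6683 of 20194), as happens when reads are divided among near-identical sequences. Among them were Fth1, Tuba1a, Tmsb10, Tuba1b, Ubb, Gapdh and Actg1, whose levels are correspondingly less certain. The gene ranked seventh, LOC100360645 (2955 FPKM), is annotated in RefSeq as a pseudogene of the ubiquitin family and also had such divided counts, so its level relative to Ubb is uncertain.

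The promoters of these genes were compared with those of less abundant genes. RefSeq windows of the 250 bases before the annotated start (assembly GRCr8) matched 15014 of the 20194 genes. CG dinucleotides are typical of promoters of broadly used genes, and the TATA box is a short element that positions the start of transcription at some promoters. The 60 bases before the start are shown for the 3 matched genes above 1000 FPKM that carried the letters TATAAA between 45 and 16 bases before the start, and for 3 leading genes and 2 neuropeptide genes that did not. Capitals mark every CG and every TATAAA on the gene's strand, the only strand searched for TATAAA.
Gapdh (chr4:159652468-159652527, minus strand): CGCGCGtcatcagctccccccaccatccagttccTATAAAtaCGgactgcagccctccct
Ppia (chr14:85493156-85493215, plus strand): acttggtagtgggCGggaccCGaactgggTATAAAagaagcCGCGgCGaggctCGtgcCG
Prph (chr7:132097229-132097288, plus strand): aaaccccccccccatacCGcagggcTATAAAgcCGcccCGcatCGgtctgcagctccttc
Apoe (chr1:88485817-88485876, minus strand): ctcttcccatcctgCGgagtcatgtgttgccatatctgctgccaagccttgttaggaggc
Uchl1 (chr14:41849418-41849477, minus strand): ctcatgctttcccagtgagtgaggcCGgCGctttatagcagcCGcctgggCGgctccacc
Sncg (chr16:9711337-9711396, minus strand): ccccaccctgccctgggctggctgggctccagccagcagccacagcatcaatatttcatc
Calca (chr1:178317530-178317589, minus strand): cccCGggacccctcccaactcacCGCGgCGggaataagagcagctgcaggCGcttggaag
Tac1 (chr4:36645523-36645582, plus strand): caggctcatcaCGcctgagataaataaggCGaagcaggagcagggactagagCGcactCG

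The median number of CG in the 250 bases was 2 in the 630 matched genes listed at 0, 5 in those above 0 and below 1 FPKM, 15 between 1 and 10 FPKM, and 17, 18 and 18.5 in the successive classes above that. TATAAA was rare in the middle of the range and more frequent at both ends: 6.67% of genes at 0, 1.22% between 1 and 10 FPKM, 0.731% between 10 and 100 FPKM, 3.25% between 100 and 1000 FPKM, and 3 of the 22 genes above 1000 FPKM (13.6%), against 2.06% of all matched genes. The letters CCAAT, on either strand, were found in 33.9% to 37.5% of the genes in every class. These are descriptions of letters in a window, and the abundance classes were not tested against each other.

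**Figure D2:**
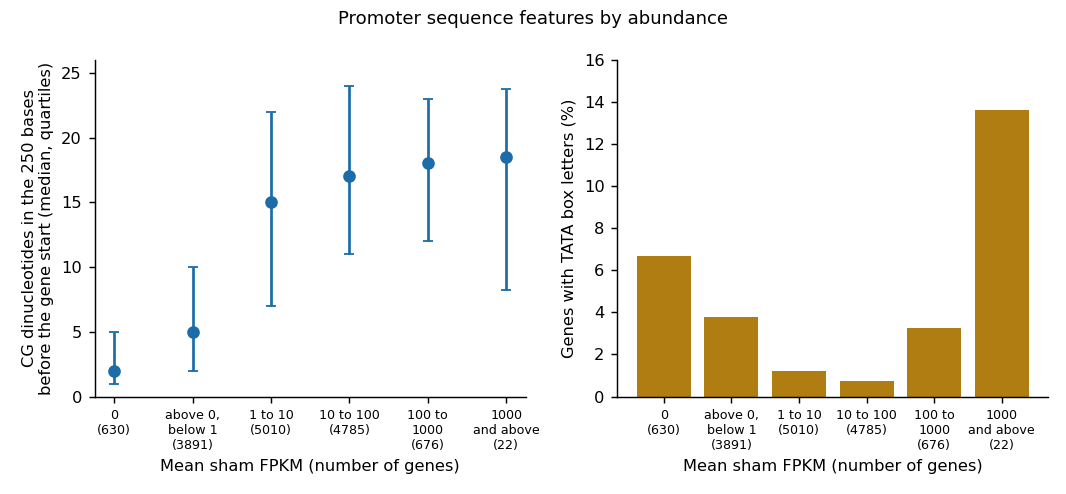
Left, number of CG dinucleotides in the 250 bases before the gene start (y axis; points are medians, bars are quartiles) by mean sham FPKM (x axis, number of genes in brackets). Right, share of genes with TATAAA in the window (y axis, percent); CG rises from a median of 2 at 0 FPKM to 18.5 above 1000 FPKM, and TATAAA is lowest, at 0.731%, between 10 and 100 FPKM.

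Marker lists for the cell classes were then ranked. The median marker level was 43.1 ± 1.5 FPKM for the neuronal class (49 of 50 genes above 1 FPKM in every library), 48.6 ± 0.85 FPKM for the glial class (40 of 40), 7.53 ± 0.14 FPKM for the stromal class (43 of 48) and 1.38 ± 0.082 FPKM for the immune class (29 of 55), against 3.89 ± 0.036 FPKM and 64.4% of all genes (SD, n = 3). Of the neuronal markers 8 were among the 100 most abundant genes, of the glial markers 6, of the stromal markers 1 and of the immune markers none. The glial median was above the neuronal median in each of the 3 libraries, but their order turned when counts per 1000000, not divided by length, were used in place of FPKM (110.3 for glia, 117.6 for neurons). No test was made between classes, because their members are different genes. In whole tissue, fewer cells of a type and less RNA per cell cannot be told apart.

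**Figure D3:**
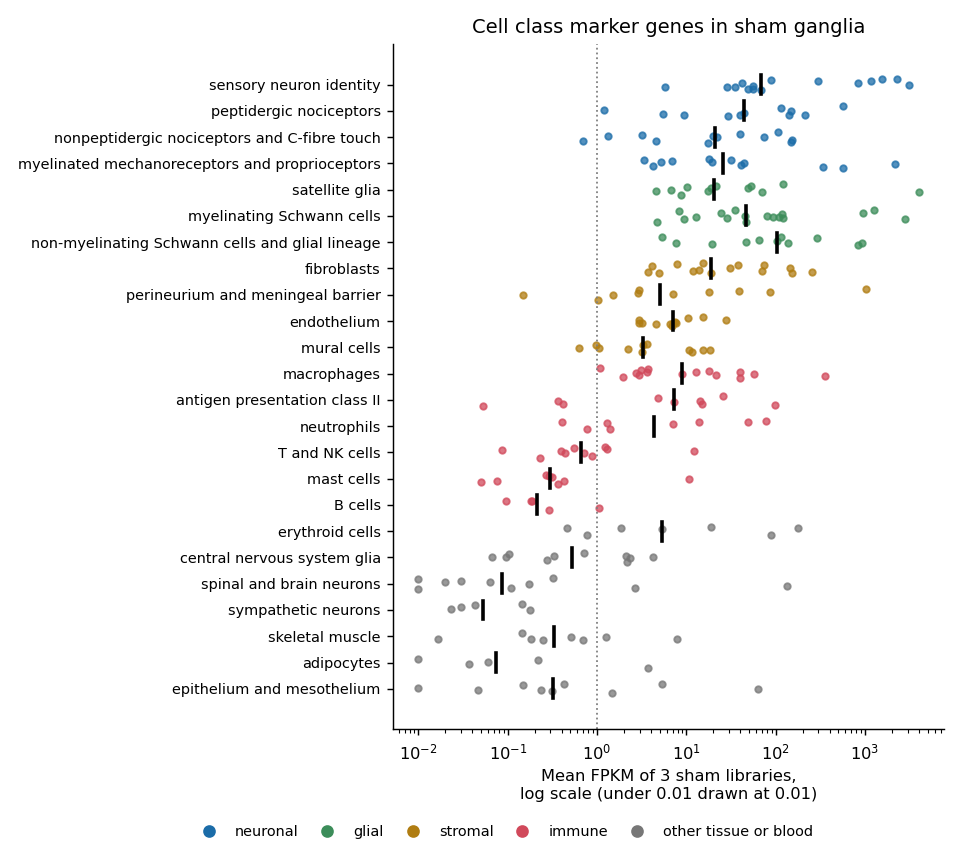
Mean FPKM over the 3 sham libraries (x axis, log scale) of each marker gene (points) in 24 lists (y axis), with the list median as a black bar and a dotted line at 1 FPKM. Neuronal and glial lists lie mostly above 10 FPKM, and the lists for T, mast and B cells, central glia, spinal and brain neurons, sympathetic neurons, muscle, fat and epithelium have medians below 1 FPKM.

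All 15 genes of general sensory neuron identity were detected, with a median of 67.9 ± 3.6 FPKM. After Uchl1, Tubb3, Thy1 and Stmn2, the highest was the vesicle fusion protein Snap25, at 821, 874 and 795 FPKM. Avil, an actin regulator largely restricted to sensory neurons, stood at 299.6, 301 and 296.8 FPKM and varied least within this list, by 0.706% (coefficient of variation, CV). The transcription factors that specify sensory neurons were lower. Prdm12, needed for nociceptor development, had 67.1, 64.8 and 71.9 FPKM, Pou4f1 had 49.2, 47.3 and 50.8 FPKM, and Isl1 had 27.8, 28.0 and 29.3 FPKM, so these 3 factors did not overlap.

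All 11 peptidergic nociceptor genes were detected, with a median of 44.3 ± 0.42 FPKM. Calca, which encodes CGRP and calcitonin, led with 545.3, 595.8 and 545.1 FPKM and ranked 92nd of all genes. Its relative Calcb had 115.7, 119.1 and 105.4 FPKM, and the ratio of Calca to Calcb was 4.96 ± 0.23. Tac1, the precursor of substance P, had 215.4, 225.2 and 200.4 FPKM and did not overlap with either. Trpv1, the channel opened by heat and capsaicin, had 39.5, 40.9 and 39.3 FPKM. The lowest member was Nppb, a natriuretic peptide of itch neurons, with 1.26, 1.12 and 1.16 FPKM.

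The 12 genes of nonpeptidergic nociceptors and C-fibre touch neurons had a median of 20.9 ± 1.1 FPKM, and 11 were detected. Ret, the signalling receptor for the glial-derived neurotrophic factors, had 153.4, 144.5 and 152.6 FPKM, and P2rx3, an ATP-gated channel, had 148.9, 155.3 and 144.9 FPKM, so they were not separated. Mrgprd, the receptor for β-alanine, had 22.9, 20.1 and 23.1 FPKM, close to Mrgprx3 at 20.4, 19.3 and 19.7 FPKM. Th, tyrosine hydroxylase of C-fibre touch neurons, had only 1.32, 1.46 and 1.16 FPKM, and the vesicular transporter Slc17a8 stayed below 1 FPKM in all libraries (0.84, 0.55 and 0.69).

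Genes of myelinated mechanoreceptors and proprioceptors (12 of 12 detected) had a median of 25.5 ± 1.4 FPKM. Below Nefh were Spp1, osteopontin of large neurons, at 548.6, 597.2 and 562.4 FPKM and Pvalb, the calcium-binding protein of proprioceptors, at 332.5, 350.8 and 332.6 FPKM. Of the neurotrophin receptors in this list, Ntrk2 had 44.8, 42.3 and 44.5 FPKM and Ntrk3 had 5.39, 5.01 and 5.19 FPKM.

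Neuropeptides and the granins packed with them spanned a wide range. Of these, 23 of 28 genes were above 1 FPKM in every library (82.1%, against 64.4% of all genes). Pcsk1n, an inhibitor of the convertase that cuts peptide precursors, was the highest at 749.8, 809.7 and 945.3 FPKM. Behind Calca came the granin Scg3 at 227.0, 222.7 and 216.7 FPKM, with no overlap between Scg3 and Scg5 (181.4, 191.2 and 172.8 FPKM), a chaperone of the convertases. Sst, somatostatin, had 138.3, 145.9 and 156.6 FPKM and lay above the granin Scg2 at 134.9, 135.9 and 131.2 FPKM. Adcyap1, the precursor of PACAP, was the next peptide at 30.4, 29.9 and 28.0 FPKM after Nmb (neuromedin B) at 74.3, 89.1 and 81.4 FPKM.

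Some peptides known to increase after nerve injury were below these levels in the sham ganglion. Gal, galanin, had 8.26, 9.62 and 10.4 FPKM. Npy, neuropeptide Y, had 3.18, 9.33 and 8.65 FPKM, and its estimated counts were 31.8, 94.0 and 87.0. Sham 1 was thus the library with little Npy, and the CV of 47.8% was the widest of the list among genes above 5 FPKM. Only in sham 1 was the Npy count not whole, and the part of read division in its low value was not tested. Vip and Grp were listed at 0 in every library. In the same files Rpl35a, a ribosomal protein gene, and Atp5f1, an ATP synthase gene, were also listed at 0, although both proteins are needed in all cells, so a listed 0 was not read as absence.

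Promoters of the neuropeptide list held the letters TGACGTCA, a palindrome known as the cyclic AMP response element, in 4 of 23 matched genes (17.4%), against 2.41% of all matched genes. TATAAA also stood in 4 of the 23, against 2.06% of all. The 40 bases around TGACGTCA, which reads the same on both strands and contains a CG, are shown because this element mediates transcription in response to cyclic AMP. Capitals mark the element.
Scg2 (chr9:88256966-88257005, minus strand): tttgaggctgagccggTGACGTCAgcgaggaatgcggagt
Cartpt (chr2:32991354-32991393, minus strand): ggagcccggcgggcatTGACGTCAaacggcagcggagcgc
Vgf (chr12:25277087-25277126, minus strand): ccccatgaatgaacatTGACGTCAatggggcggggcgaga
Ucn (chr6:30957960-30957999, plus strand): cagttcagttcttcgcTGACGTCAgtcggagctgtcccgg
The element began 123 bases before the start in Scg2 (134.05 FPKM), 142 in Cartpt (11.1 FPKM), 90 in Vgf (26.7 FPKM) and 110 in Ucn (0.36 FPKM). Genes with these letters therefore lay at both high and low levels.

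All 35 channels of neuronal excitability were above 1 FPKM in every library, with a median of 22.4 ± 1.5 FPKM. Of the pore-forming sodium channels, Scn10a, which resists tetrodotoxin, had 108.2, 100.6 and 111.8 FPKM and exceeded Scn9a by a ratio of 3.14 ± 0.21. Scn11a stood between them at 75.7, 71.5 and 74.7 FPKM. Among sensors, the acid-sensing channel Asic3 (103.4, 111.1 and 113.9 FPKM) was above the touch channel Piezo2 (42.0, 36.5 and 39.4 FPKM), whose range overlapped with that of Trpv1. The cold channel Trpm8 (19.1, 17.9 and 18.8 FPKM) and the irritant sensor Trpa1 (17.9, 17.3 and 16.8 FPKM) overlapped. The lowest channels were the chloride channel Ano1 at 2.21, 2.28 and 2.41 FPKM and Kcnq3 at 2.06, 1.75 and 1.68 FPKM.

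**Figure D4:**
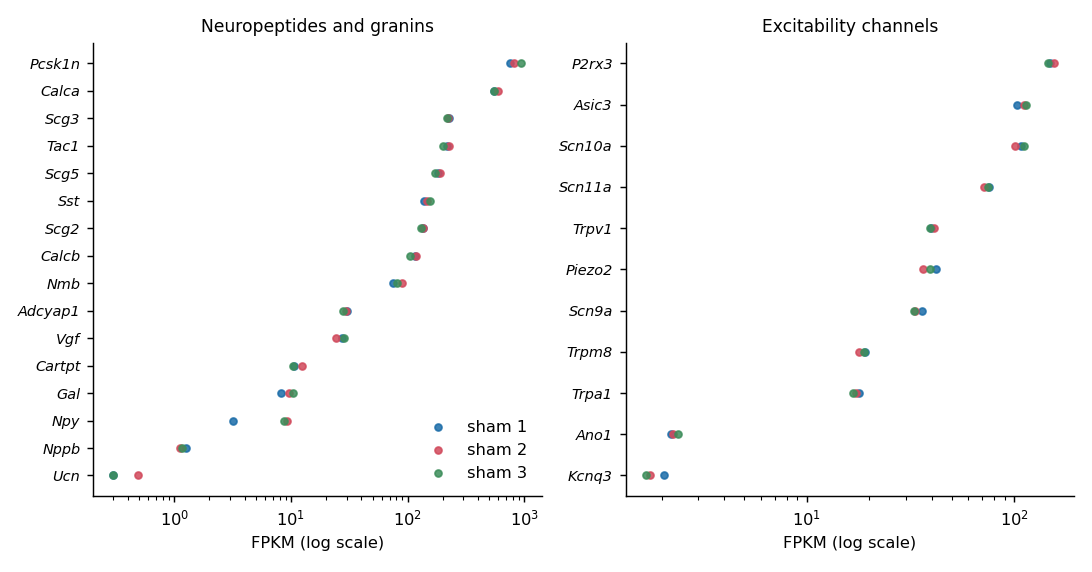
FPKM (x axis, log scale) in sham 1, 2 and 3 (points) of the neuropeptide, granin and related genes named in the text with a level above 0 (left) and of the named excitability channels (right). Most genes have their 3 points close together, and Npy, with sham 1 at 3.18 and the others at 9.33 and 8.65, is spread most among the genes above 5 FPKM.

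Release of transmitter was represented by 21 of 21 synaptic vesicle genes, with a median of 85.3 ± 1.3 FPKM. The complexin Cplx1 (659.9, 694.0 and 679.9 FPKM), the vesicle GTPase Rab3a (493.7, 509.5 and 532.6 FPKM) and Vamp1 (502.6, 517.6 and 490.1 FPKM) followed Snap25, and the ranges of Rab3a and Vamp1 overlapped. The transmitter itself was represented mainly by glutamate transporters. Slc17a7, which fills vesicles with glutamate, had 130.8, 128.1 and 140.3 FPKM and exceeded its relative Slc17a6 by a ratio of 5.01 ± 0.38. Of the genes for inhibitory, cholinergic and catecholamine transmission, Gad1 (0.26, 0.46 and 0.24 FPKM), Chat (0.16, 0.05 and 0.12 FPKM) and Dbh (0, 0 and 0.07 FPKM) were at or near 0. Th, given above, was low but reached 1 FPKM in every library.

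Of the glial lists, satellite glia had a median of 20.3 ± 1.1 FPKM with 12 of 12 genes detected. Apart from Apoe, the highest was Glul, glutamine synthetase, at 121.5, 119.1 and 121.4 FPKM. Fabp7, a fatty acid-binding protein, had 52.4, 56.2 and 50.3 FPKM, and Kcnj10, the potassium channel that buffers potassium around the neurons, had 23.2, 21.0 and 20.6 FPKM. Apoe made up 91.4% of the summed level of this list, and macrophages also make it.

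Myelinating Schwann cell genes had a median of 46.9 ± 2.2 FPKM, all 17 were detected, and 3 were among the 100 most abundant genes. Pmp22 stood at 1260, 1279 and 1253 FPKM and Mbp, myelin basic protein, stood at 923.3, 962.7 and 930.7 FPKM. The ranges of Pmp22 and Mbp did not overlap. Egr2, the transcription factor that drives myelination, was the lowest member at 4.55, 4.42 and 5.16 FPKM. The list for non-myelinating Schwann cells and the glial lineage had the highest median of the 24 cell lists, 102.9 ± 5.5 FPKM (11 of 11). It contains the lipid carrier Apod (903.9, 976.6 and 925.8 FPKM), the calcium-binding protein S100b (818.5, 851.1 and 847.7 FPKM) and Ngfr (285.6, 284.5 and 299.4 FPKM), the low-affinity neurotrophin receptor, which sensory neurons also express. Gfap was near the bottom with 5.01, 6.39 and 4.75 FPKM.

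Stromal markers were led by Ptgds, a prostaglandin D synthase of the meninges, at 984.3, 1099 and 1017 FPKM. It was the only stromal marker among the 100 most abundant genes, and the other 9 genes of the perineurial and meningeal list lay below 100 FPKM. Fibroblast genes (15 of 15 detected) had a median of 19.0 ± 0.65 FPKM. The matrix proteoglycan Dcn was highest at 260.8, 264.3 and 244.5 FPKM, and the fibrillar collagens Col3a1 (71.9, 74.9 and 74.6 FPKM) and Col1a1 (71.1, 68.3 and 73.2 FPKM) overlapped. Of 44 collagen genes, 26 were detected (59.1%, against 64.4% of all genes). Endothelial genes (12 of 12) had a median of 7.05 ± 0.31 FPKM, with the tight junction gene Cldn5 highest at 25.7, 27.9 and 30.4 FPKM. Mural cell genes, from pericytes and smooth muscle, had the lowest stromal median, 3.30 ± 0.16 FPKM. Of these genes 8 of 11 were detected (72.7%, against 64.4% of all genes), and Tagln had 17.7, 20.5 and 16.4 FPKM.

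Of the 29 detected immune markers, 14 were those of macrophages, a list of 15 genes with a median of 9.01 ± 0.81 FPKM. Lyz2, lysozyme, had 339.8, 378.6 and 341.2 FPKM, and the complement genes C1qc (52.1, 62.1 and 58.6 FPKM), C1qa (39.5, 41.2 and 38.2 FPKM) and C1qb (38.8, 40.6 and 38.7 FPKM) followed. Lyz2 made up 62.0% of the summed level of the macrophage list. Csf1r, the growth factor receptor that macrophages depend on, had 12.8, 13.2 and 12.9 FPKM. Of 9 genes for class II antigen presentation, 6 were detected (66.7%, close to the 64.4% of all genes). They were led by the invariant chain Cd74 at 91.4, 99.0 and 101.6 FPKM.

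Lymphocyte and mast cell genes were scarce. Only 3 of 10 T and NK cell genes were detected, and 1 of those, Cd4 (11.96, 12.54 and 12.17 FPKM), is also carried by rat macrophages. The T cell receptor component Cd3e had 0.54, 0.43 and 0.33 FPKM, and the ratio of Cd4 to Cd3e was 29.4 ± 7.4. None of the 5 B cell genes reached the threshold in all libraries, and of 8 mast cell genes only Kit did (11.5, 9.80 and 10.5 FPKM), a receptor also present in some sensory neurons. The protease genes of mast cells Cma1, Tpsb2 and Cpa3 were at or below 0.56 FPKM. Of the 8 neutrophil genes 5 were detected (62.5%, close to the 64.4% of all genes), with S100a9 at 78.6, 78.8 and 76.3 FPKM and S100a8 at 45.4, 61.6 and 40.2 FPKM. The CV of S100a8 was 22.8%, and it was the highest in sham 2. The haemoglobin genes Hba2 (157.8, 198.4 and 179.9 FPKM) and Hbb (90.9, 89.9 and 86.3 FPKM) were also present, and Hba2 was likewise highest in sham 2. The summed level ranged from 140.4 to 168.6 FPKM for the 8 neutrophil genes. For the 7 erythroid genes it ranged from 275.3 to 320.8 FPKM. The main S100a8 transcript had an effective length of 0.326 kb. The median effective length was 0.721 kb in the neutrophil list and 0.594 kb in the erythroid list. Values of such short genes tended to be high in sham 2. The parts of blood and of length in these values were not tested.

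Markers of neighbouring tissues were used as a check of the dissection. The defining genes of oligodendrocytes and astrocytes Olig2 (0.13, 0.15 and 0.03 FPKM) and Aqp4 (0.32, 0.47 and 0.20 FPKM), of motor neurons Mnx1 (0.03, 0 and 0 FPKM) and of sympathetic neurons Dbh were at or near 0. The median was 0.52 ± 0.090 FPKM for central glia, 0.087 ± 0.031 FPKM for spinal and brain neurons, 0.053 ± 0.047 FPKM for sympathetic neurons, 0.33 ± 0.070 FPKM for skeletal muscle and 0.073 ± 0.025 FPKM for fat. Olig2 and Aqp4 do not stand for the whole central glia list, of which 4 of 10 genes were detected (40%, against 64.4% of all genes). The summed level of that list was 11.8 to 13.5 FPKM, and its highest member held 34.1% of it. Single members stood out. Slc17a7 is shared with sensory neurons, Acta1 of skeletal muscle had 7.39, 8.30 and 7.60 FPKM, and Cdh1, the epithelial cadherin, had 65.6, 60.6 and 63.6 FPKM while Epcam stayed at or below 0.34 FPKM. Against the labels' mention of macrophages in the extraction text, the median of the macrophage list was 9.01 FPKM, below those of the sensory neuron (67.9 FPKM) and myelinating Schwann cell (46.9 FPKM) lists, so the marker genes went with the DRG tissue label.

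Hox genes carry positional information, and higher-numbered groups are used farther toward the tail. Of 37 genes, 26 were detected (70.3%, against 64.4% of all genes). The most abundant were Hoxd1 (18.2, 18.0 and 18.9 FPKM), which is expressed in nociceptors, Hoxb8 (13.4, 13.8 and 15.7 FPKM), Hoxa7 (14.5, 12.3 and 15.9 FPKM) and Hoxc9 (14.1, 15.1 and 13.1 FPKM). The summed level was 34.6 ± 1.2 FPKM for paralog group 9 and 17.6 ± 0.11 FPKM for group 10, and fell to 1.21 ± 0.12 FPKM for group 11. Hoxc10 had 8.58, 8.42 and 9.01 FPKM and Hoxd11 only 0.87, 0.89 and 1.03 FPKM. The groups of the most posterior genes, 12 and 13, were at or near 0.

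General cell functions were ranked high. All 16 glycolytic genes were detected, with a median of 309.6 ± 7.2 FPKM, of which Aldoa had 1231, 1340 and 1330 FPKM. Of 83 cytosolic ribosomal protein genes, 78 were detected, 75 were above 100 FPKM, and the median was 294 ± 21 FPKM. Of 82 nuclear genes for oxidative phosphorylation, 77 were detected, with a median of 142.1 ± 8.9 FPKM. In both lists the summed level was highest in sham 2, with 26210 FPKM against 22730 and 23525 for the ribosomal genes and 16862 FPKM against 14735 and 15372 for the respiratory genes. The median effective length was 0.536 kb in the ribosomal and 0.603 kb in the respiratory list, within the lengths at which sham 2 was high, and the part of length in this difference was not tested. Proteasome genes (37 of 39 detected) had a median of 91.2 ± 2.4 FPKM.

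The genes the study was concerned with were mostly low in the sham ganglion. Gper1, the G protein-coupled oestrogen receptor, had 0.43, 0.85 and 0.76 FPKM, from 24, 41 and 38 counts. Esr1, oestrogen receptor α, had 0.74, 0.55 and 0.54 FPKM, and the ratio of Esr1 to Gper1 was 1.72, 0.647 and 0.711, so the order of the receptors was not the same in all libraries. Esr2, oestrogen receptor β, had 0.09, 0.17 and 0.06 FPKM. At this depth these levels rest on few reads. The ranges of Gper1 and Esr1 overlapped, and their difference was not tested, whereas Esr2 lay below both in every library. Of the inflammatory genes, Il1b had 0.54, 1.11 and 0.78 FPKM, whereas Il6 had a single count in sham 1 and Nos2 had 3, 1 and 0 counts.

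Subunits of the GABA-A receptor, the chloride channel opened by the transmitter GABA, ranged widely. Gabra2, the α2 subunit, had 39.1, 36.1 and 36.9 FPKM, and Gabra3, Gabra5 and Gabrb2 had means of 5.90, 3.15 and 1.78 FPKM. Of the genes that handle β-alanine and its dipeptide carnosine, 10 of 13 were detected (76.9%, against 64.4% of all genes). The dipeptidase Cndp2 was highest at 51.9, 55.8 and 53.1 FPKM, the transporter Slc36a1 had 39.0, 33.9 and 41.3 FPKM, and Abat, which degrades GABA and β-alanine, had 16.4, 17.4 and 17.4 FPKM. Among the enzymes that form β-alanine from pyrimidines, Dpyd had 5.07, 4.51 and 4.64 FPKM, whereas Dpys and Upb1 stayed at or below 0.43 FPKM. In the same list Csad had 14.9, 14.2 and 15.5 FPKM, and Gadl1 had 0.77, 0.72 and 0.86 FPKM.

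The usual reference genes differed in level and steadiness. Actb had 950.1, 859.3 and 986.0 FPKM, against 2393, 2681 and 2609 FPKM for Gapdh. All 14 reference genes were detected, from Ppia down to Gusb with 4.45, 5.66 and 4.76 FPKM. Tbp, the TATA-binding protein, had 6.16, 5.51 and 5.40 FPKM.

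The spread between the libraries was small. The common biological coefficient of variation by edgeR was 6.08% over 13649 genes, and the median CV of FPKM was 4.67% over the 6775 genes with a mean of at least 10 FPKM. Among those genes only 43 had a CV above 20%, and 42 of the 43 had estimated counts that were not whole. The exception was S100a8. The 10 genes with the highest CV were Rpl9, Polr2h, Hist2h2aa3, Wbp11, Dpm3, Rpl38, Rab5a, H2afj, Rps13 and M6pr. Rpl9, a ribosomal protein gene, had 98.9, 141.3 and 20.2 FPKM, and Rpl38 had 142.7, 227.3 and 105.8 FPKM, while the median CV of the ribosomal protein genes was 7.80%. All 10 had estimated counts that were not whole, in every library for 9 of them and in 1 library for Polr2h, and the part of read division in their spread was not tested.

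The deposited values also divide genes into transcripts. Transcripts with curated RefSeq accessions (NM) held 75.1 ± 0.36% of the summed transcript FPKM, predicted coding transcripts (XM) 24.7 ± 0.36% and predicted non-coding transcripts (XR) 0.261 ± 0.0042%. Of 116 detected named genes with several transcripts, 39 had 1 transcript with at least 90% of the FPKM, and 10 had none with as much as 50%. Calca was divided over 2 main transcripts, with 56.5 ± 0.62% and 43.2 ± 0.65%, and Tac1 over 4, of which the first held 54.2 ± 1.6% and the second 31.9 ± 1.7%.

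Gabra2 was the only one of the 116 genes whose main transcript was of the predicted non-coding kind. That transcript held 89.8%, 91.7% and 86.1% of the Gabra2 FPKM in sham 1, 2 and 3, and a predicted coding transcript held the other 10.8 ± 2.9%. The Gabra2 gene level given above therefore consists mainly of reads assigned to a transcript that RefSeq does not predict to be coding.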

How the data were processed

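The series holds RNA-Seq of rat DRG, and the 3 libraries with a sham title were used. Their columns are named Control in the deposited tables, and were taken as sham because the other column names leave only that group. Per the study's methods, RNA was sequenced as paired reads of 150 bp on an Illumina HiSeq platform. The authors deposited FPKM values (fragments per kilobase and per 1000000 fragments, with a gene's value as the sum over its transcripts), TPM values and estimated read counts per gene, and FPKM and estimated counts per transcript. The submitters' processing notes name the mouse builds GRCm38 and mm10, yet 18599 of the 20194 gene identifiers matched rat RefSeq genes (GRCr8), so the build used for mapping is uncertain. No column of per-sample values was left without a sample (0 columns). Columns of the authors' comparisons between groups were not used.

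FPKM were analysed as deposited. A gene was called detected at an FPKM of at least 1 in every sham library, and ranked by mean FPKM. An estimated count was called whole within 0.005 of a whole number. Effective length is the estimated count divided by FPKM and by the library's estimated reads. The libraries held 18500205 to 18648695 estimated reads. Spread was the CV of FPKM and the common dispersion of edgeR 4.0.16 (rounded estimated counts, TMM, intercept only), with DESeq2 1.42.0 size factors as an alternative, and the edgeR estimate was tested on simulated data. Promoter windows came from RefSeq, the first entry per gene. Python 3.11.15 and R 4.3.3 were used. Levels are descriptions: no test was made, because 1 group was described, and 3 libraries against 3 could not give an exact two-sided p below 0.1.

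Genes were named by this rule: the 30 most abundant with a gene symbol, up to 6 of the highest members of each list and defining members at 0, the study's genes, the 10 with the highest CV at a mean of at least 10 FPKM, and the 10 highest in no list. Further genes were named after their values were seen, for example the low members of lists. The members and lists were chosen with earlier results of these data known. Some genes are not reported here. Alternatives were other thresholds, units, pseudocounts (1 and 0.1) and filters, and leaving out each library.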

Additional observations from a re-analysis of the deposited data

How the results depend on the processing

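The values came from 3 libraries of one group, so they are limited to the spread between these libraries, and no depth-based interval is given because the counts are estimates. No paired analysis was possible because 1 group was described and no test was made. Of 49 values recomputed under other settings, 20 stayed within the spread between libraries (or within 1.5 times for counts) and 29 did not. The 29 include class medians in other units, which were judged by the SD in FPKM and so fell outside through the change of unit. They also include means on a log scale, which are another statistic than the median. Of 33 values with 1 library left out, 32 stayed within it. For the shares and class medians this outcome was fixed in advance, because leaving out 1 of 3 values cannot move their mean by a full SD. The band of 1.5 times for counts is also wide for such a change. This tally is therefore no measure of stability.

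The number of detected genes was 6550 at 10 FPKM in every library, against 13005 at 1 FPKM; leaving out 1 library gave 13086 to 13142. Ranked by estimated counts scaled to the library total, which disregards length, the 10, 100 and 1000 most abundant genes held 5.58%, 19.8% and 51.4%, and 65 of the 100 genes stayed among the first 100. Without genes whose counts were not whole, the shares were 8.44%, 27.0% and 64.9%, and 66 of the 100 stayed, since the other 34 were left out. With 1 library left out, the shares were 6.52% to 6.62%, 23.9% to 24.1% and 59.0% to 59.6%, and 97 to 99 of the 100 stayed.

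In the order neuronal, glial, stromal and immune, the class medians were 88.9, 100.03, 15.5 and 2.84 as TPM and 117.6, 110.3, 20.2 and 3.34 as counts per 1000000. Means over the members on a log scale, turned back to FPKM, replace the median by another statistic, and were 51.9, 58.4, 10.5 and 3.52 from log2(FPKM + 1) and 48.8, 56.9, 9.34 and 2.31 from log2(FPKM + 0.1). With only members of at least 1 FPKM in a library, the stromal median was 7.85 FPKM and the immune median 9.01 FPKM, which turned the order of these classes. Leaving out 1 library gave 42.3 to 43.8, 48.1 to 49.0, 7.48 to 7.61 and 1.34 to 1.43 FPKM. The common biological CV was 4.89% at 10 FPKM and above, 4.50% in genes with whole counts (chosen after seeing the data), and 5.67% to 6.45% with 1 library left out, lowest without sham 2. Genes with 1 transcript at 90% or more numbered 39 by FPKM and 41 by estimated counts.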
